A study of Mus musculus with 94 samples.

Results

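The 100 probe identifiers described here are those of the mouse Whole Transcriptome Atlas whose tubular level stood highest over control on day 1 after renal ischemia-reperfusion injury (IRI) in vehicle-treated mice, out of 20175 identifiers in all. They were selected on measured values. Counts were summed over the regions of a kidney section, and the level was log2(CPM + 1), where CPM are counts scaled to a sum of 1000000. The day 1, day 7, and day 14 differences are the mean level of the 2 vehicle sections of that day minus the mean level of the 2 control sections, all in tubular segments. An identifier had to have a day 1 difference of at least 0.5 that was the largest of the 3, day 7 and day 14 differences of at least 0, and a macrophage level less than 1 above the tubular level on average over the 4 vehicle sections of days 7 and 14. RTS0070220, which held from 2.5% to 5.1% of the tubular counts of a section, was excluded beforehand. These conditions left 188 identifiers, of which the 100 with the largest day 1 difference were taken. The 3 lowest members had day 1 differences of 0.69, and the 3 identifiers just outside had 0.68.

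After ischemia, tubular epithelial cells lose polarity and brush border, and surviving cells take on an injured state with expression of injury, stress, and inflammatory genes. In adaptive repair these programs fade as cells divide and redifferentiate, whereas in maladaptive repair a part of the epithelium keeps them and signals to leukocytes and fibroblasts. Spleen tyrosine kinase (SYK) relays signals of immune receptors in leukocytes, and entospletinib is a selective SYK inhibitor. The deposited files hold identifiers without gene names and no table used here pairs them, so the genes behind the members, their roles, and their sequences are not given. For the same reason the tubule and macrophage labels could not be checked against marker genes.

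Digital spatial profiling (DSP) was done on fixed kidney sections of C57BL/6 male mice. Control kidneys (CTRL) had no IRI, and the sources describe them as contralateral kidneys or as kidneys of healthy mice without saying which was used for these sections. Injured kidneys came from mice treated with vehicle (I1V, I7V, and I14V for days 1, 7, and 14) or entospletinib (I1E, I7E, and I14E) before unilateral IRI, and dosing was repeated only in the mice kept to days 7 and 14. Each of the 7 groups had 2 sections, told apart by the prefix of the sample labels, without any statement that a prefix is a mouse of its own, so that p-values measure the spread between these sections. Segments positive for PanCK, with or without CD10, are called tubular and those positive for IBA1, a macrophage marker, are called macrophage, as labeled. In segments that hold many cells, fewer cells of a type and less RNA per cell cannot be told apart. Tubular sums per section ranged from 9404235 to 25729550 counts and macrophage sums from 117693 to 2773456. Medullary segments gave between 11.5% and 63.5% of a section's tubular counts, with the lowest shares in the vehicle day 1 sections (18.7% and 11.5%).

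The members were of moderate abundance. Their mean tubular level in control sections had a median of 31.5 CPM and ran from 9.08 to 975.3 CPM, against a median of 23.4 CPM over all identifiers. On day 1 after IRI with vehicle the median was 76.7 CPM, and the lowest count of any member in any tubular section was 66. The day 1 difference ran from 0.69 to 5.80 on the log2(CPM + 1) scale with a median of 0.97, against 0.11 over all identifiers. It was above 1 in 44 members and above 2 in 12, so the second largest value, 2.84, lay far below the largest.

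The median member level in the control sections was 4.91 and 5.11 on the log2(CPM + 1) scale in tubular segments. It was 6.00 and 6.21 in the vehicle sections of day 1, 5.79 and 5.80 on day 7, and 5.62 and 5.82 on day 14. Entospletinib sections had 5.87 and 6.54 on day 1, 5.01 and 5.06 on day 7, and 4.96 and 4.98 on day 14. Vehicle sections of all 3 days and entospletinib sections of day 1 thus lay above both controls, whereas entospletinib sections of days 7 and 14 fell between the 2 control values. Over all identifiers the section medians stayed between 4.34 and 4.91.

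**Figure D1:**
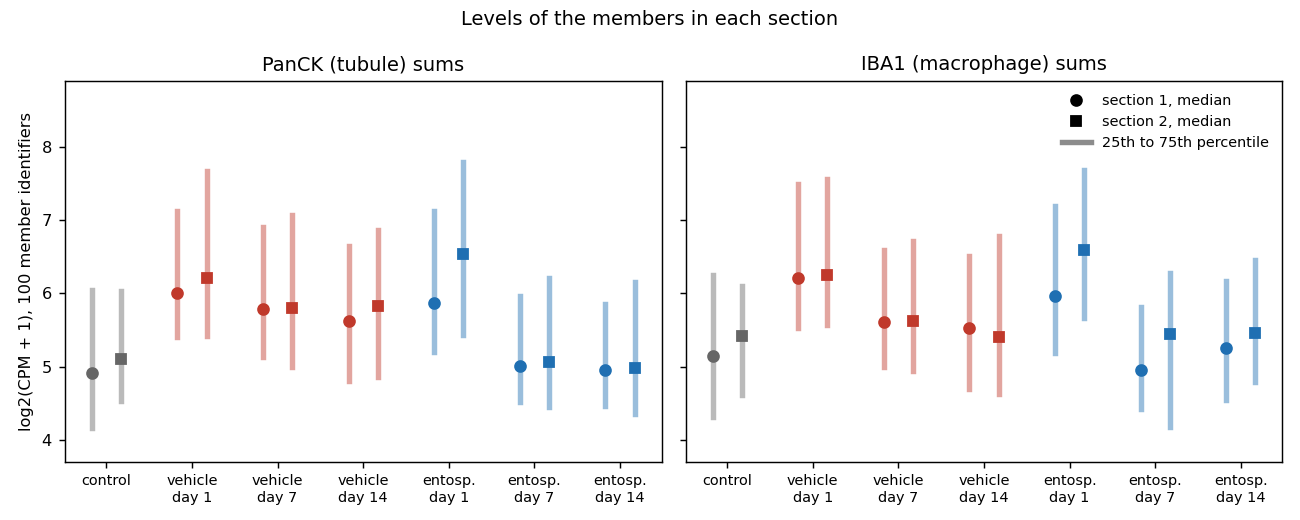
Level of the 100 members on the log2(CPM + 1) scale in each section, tubular sums on the left and macrophage sums on the right; points are medians over members, bars run from the 25th to the 75th percentile, circles and squares are sections 1 and 2. In tubules the medians of the entospletinib sections on days 7 and 14 lie between 4.96 and 5.06, close to the control sections at 4.91 and 5.11, and those of the vehicle sections lie between 5.62 and 6.21.

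Selection on the vehicle values fixed part of this course, and it is given as a description. In vehicle tubules 97 of the 100 members had both day 1 sections above both control sections, compared with 18.1% of all identifiers, and edgeR's quasi-likelihood test called 8 of them higher on day 1 than in control at an adjusted p under 0.05 and a log2 fold change above 1. Of all 20175 identifiers 0.149% were called in that direction. The same sections chose the members, so nothing can be read from that count. The peak was shallow for many members. Both day 1 sections lay above both day 7 sections in 60 members and above both day 14 sections in 68, compared with 9.23% and 31.3% of all identifiers, and the smallest day 1 minus day 7 difference was 0.015. On day 7 the difference from control was still more than 0.5 times that on day 1 in 71 members, and on day 14 in 62. The 12 members above 2 on day 1 had median differences of 1.497 on day 7 and 0.97 on day 14, and the 56 members below 1 had 0.47 and 0.48.

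RTS0068457 had the largest day 1 difference. Its tubular level was 34.4 and 13.0 CPM in control sections, 759 and 2007 CPM in vehicle sections on day 1, 964 and 1090 CPM on day 7, and 175 and 369 CPM on day 14. With entospletinib it was 785 and 2737 CPM on day 1, 16.7 and 25.7 CPM on day 7, and 16.5 and 57.1 CPM on day 14. All 6 vehicle sections and both entospletinib sections of day 1 were above every control section, and the later entospletinib sections overlapped the controls or exceeded the higher control in 1 section, on day 14.

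RTS0069800 ranked second. Its tubular level was 10.6 and 11.7 CPM in control sections, 180.5 and 40.9 CPM in vehicle sections on day 1, 35.7 and 30.6 CPM on day 7, and 21.7 and 19.6 CPM on day 14. With entospletinib it was 69.2 and 146 CPM on day 1, 11.8 and 10.2 CPM on day 7, and 11.0 and 10.1 CPM on day 14. The 2 day 1 sections of either treatment differed by more than 2-fold from each other, while the control and later sections differed little.

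Tests of day 1 against later days that the selection did not use lie in the entospletinib-treated mice. Control is not part of these comparisons. Dosing was repeated only in the mice kept to days 7 and 14, so time and dosing cannot be told apart. In entospletinib-treated mice the day 1 level was the highest of the 3 days in 95 of 100 members, compared with 33.6% of all identifiers. Between days 1 and 7, 94 members had a positive log2 fold change (day 1 over day 7), with a median of 0.93 (quartiles 0.58 and 1.51), whereas the median over all identifiers was -0.09. edgeR called 18 of the 100 members higher on day 1, with log2 fold changes from 1.00 to 6.35, against 0.233% of all identifiers (47 of 20175). An adjusted p under 0.05 without the fold threshold was reached by 22 members. In edgeR an unadjusted p under 0.05 was reached by 80 members and, in either direction, by 1678 of all 20175 identifiers. Against day 14, 93 members had a positive log2 fold change with a median of 0.92, and 17 were called higher on day 1, against 0.248% of all identifiers (50 of 20175). Both comparisons use the same day 1 sections. Both day 1 sections lay above both day 7 sections in 84 members and above both day 14 sections in 89, compared with 13.9% and 19.5% of all identifiers.

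The number of calls depended on single sections, while the median fold change did not change sign. Against day 7 the count of members called was 42 without section 1 of day 1, 3 without section 2 of day 1, 2 without section 1 of day 7, and 0 without section 2 of day 7, where edgeR still gave 76 members an unadjusted p under 0.05. Against day 14 it was 40 without section 1 of day 1, 3 without section 2 of day 1, 2 without section 1 of day 14, and 1 without section 2 of day 14. Over these 8 fits the median log2 fold change of the members ran from 0.61 to 1.22. Leaving out a section moved the number of calls over all identifiers in the same direction. With DESeq2 on the same sums the counts were 41 and 39, of 128 and 108 identifiers called higher on day 1. With TMM normalization in edgeR they were 9 and 7, of 24 and 23.

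RTS0070030 and RTS0071880 had the smallest adjusted p between days 1 and 14 among the other members. RTS0070030 was at 243 and 284 CPM in entospletinib tubules on day 1, at 51.4 and 32.2 CPM on day 7, and at 33.4 and 42.8 CPM on day 14. Its log2 fold change from day 14 to day 1 was 2.69 (SE 0.25, n = 2 sections per group, edgeR adjusted p = 0.00265), and from day 7 it was 2.64 (SE 0.25, edgeR adjusted p = 0.00266). Its control sections had 48.1 and 52.1 CPM and its vehicle sections 323 and 285 CPM on day 1, 129 and 123 CPM on day 7, and 206 and 251 CPM on day 14. Vehicle levels on days 7 and 14 thus stayed above both controls in every section, and those with entospletinib were at or below the controls except for 1 section of day 7, which lay between them.

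RTS0071880 was at 59.0 and 61.3 CPM in entospletinib tubules on day 1, at 25.1 and 17.8 CPM on day 7, and at 22.9 and 18.3 CPM on day 14. Its log2 fold change from day 14 to day 1 was 1.46 (SE 0.15, n = 2 sections per group, edgeR adjusted p = 0.00303), and from day 7 it was 1.46 (SE 0.15, edgeR adjusted p = 0.0031). Its control sections had 23.2 and 26.0 CPM and its vehicle sections 63.2 and 63.5 CPM on day 1, 69.8 and 51.5 CPM on day 7, and 43.5 and 49.4 CPM on day 14. The spread between its day 1 sections was small beside the rise over control in both treatments. With vehicle, however, section 1 of day 7 (69.8 CPM) lay above both day 1 sections, so its day 1 and day 7 levels overlapped.

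RTS0068457 was also called against both days, with log2 fold changes of 6.35 (SE 0.96, edgeR adjusted p = 0.0233) from day 7 and 5.48 (SE 0.92, edgeR adjusted p = 0.0365) from day 14, although with TMM normalization, or with the regions taken apart, neither comparison passed. Its call against day 7 was also lost without section 2 of day 1 (5.10) or either section of day 7 (6.00 and 6.80), and that against day 14 without section 2 of day 1 (4.22) or either section of day 14 (4.81 and 6.74). RTS0069800 had larger fold changes than RTS0070030 but did not pass, at 3.27 (SE 0.60, edgeR adjusted p = 0.0717) from day 7 and 3.28 (SE 0.59, edgeR adjusted p = 0.0577) from day 14. It was called against both days without section 1 of day 1 (3.75 and 3.75), with DESeq2 on the sums (3.39 and 3.34), and in cortex alone (1.80 and 1.77). DESeq2 on segments called it too (2.95 and 2.92), but that fit takes segments of the same sections as replicates. In cortex alone RTS0071880 was called against neither day (1.41 and 1.37). Without section 2 of day 7, neither RTS0070030 (2.41) nor RTS0071880 (1.31) was called against day 7, and RTS0071880 was not called against day 14 without section 2 of day 14 (1.37).

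**Figure D2:**
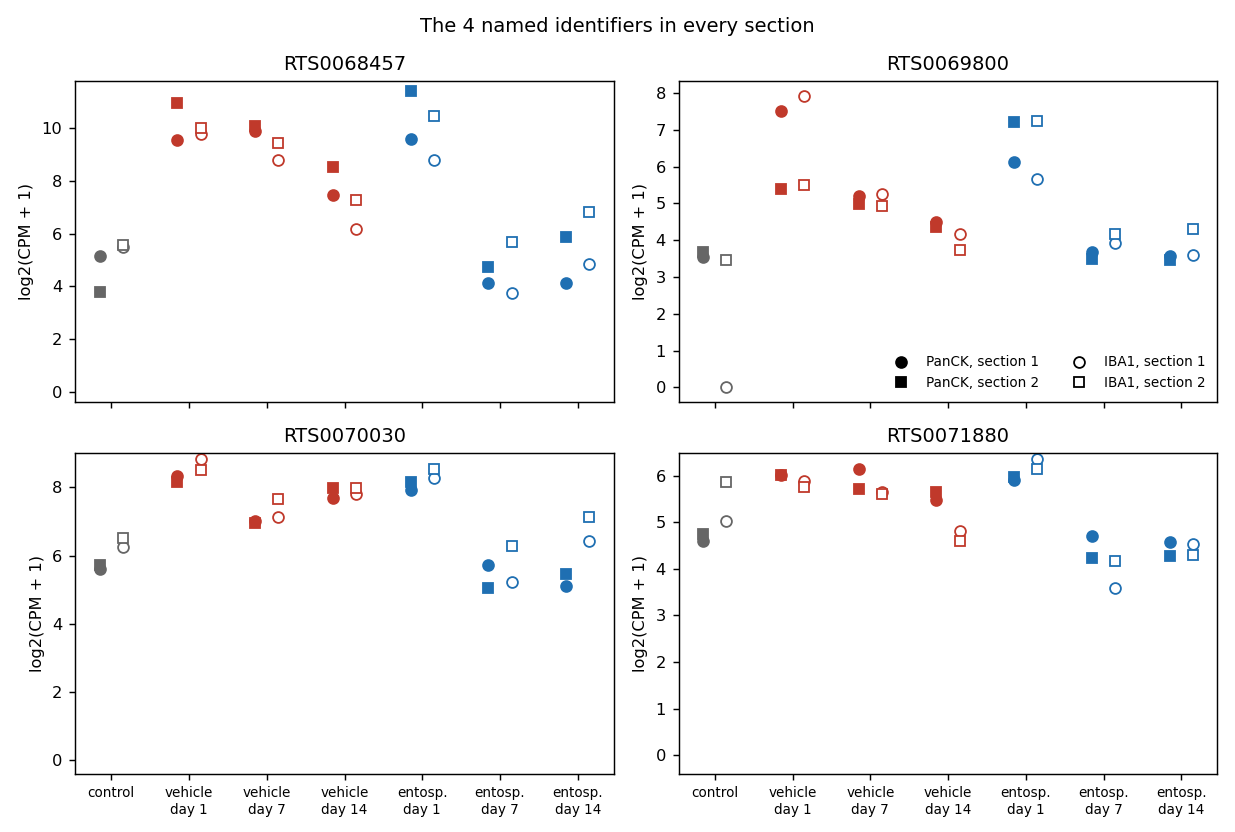
Level of the 4 named identifiers in every section on the log2(CPM + 1) scale, with filled marks for tubular and open marks for macrophage sums, and circles and squares for sections 1 and 2. For RTS0070030 both entospletinib tubular sections on day 1 (243 and 284 CPM) lie above all 4 later ones, and the vehicle sections on day 14 (206 and 251 CPM) stay above both controls.

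Set beside control, the 2 treatments lay close together on day 1 and apart later. These values share the control sections and the vehicle values chose the members, so they are given without a test. On day 1 the median difference of the members from control was 0.97 with vehicle and 0.91 with entospletinib, and both entospletinib sections lay above both control sections in 94 members, compared with 14.2% of all identifiers. The entospletinib minus vehicle difference on day 1 ran from -0.80 to 0.42 with a median of -0.06. Both vehicle sections lay above both entospletinib sections in 20 members, and the opposite order was found in 0 of 100, compared with 10.7% and 6.14% of all identifiers. On day 7 the median difference from control was 0.63 with vehicle and -0.02 with entospletinib, and on day 14 it was 0.56 and -0.05. Only 8 members on day 7 and 7 on day 14 had both entospletinib sections above both controls, compared with 8.20% and 4.17% of all identifiers, whereas 86 and 77 members did so with vehicle, compared with 25.7% and 28.5% of all identifiers. A difference smaller than 0.2 from control was seen with entospletinib in 60 members on day 7 and 67 on day 14. Such small differences do not set the members apart. Over all identifiers the quartiles with entospletinib were -0.007 and 0.195 on day 7 and -0.089 and 0.079 on day 14. With vehicle 3 and 13 members differed by less than 0.2. There the quartiles over all identifiers were 0.020 and 0.273 on day 7 and -0.272 and 0.290 on day 14. The selection had required vehicle differences of at least 0 on both days.

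**Figure D3:**
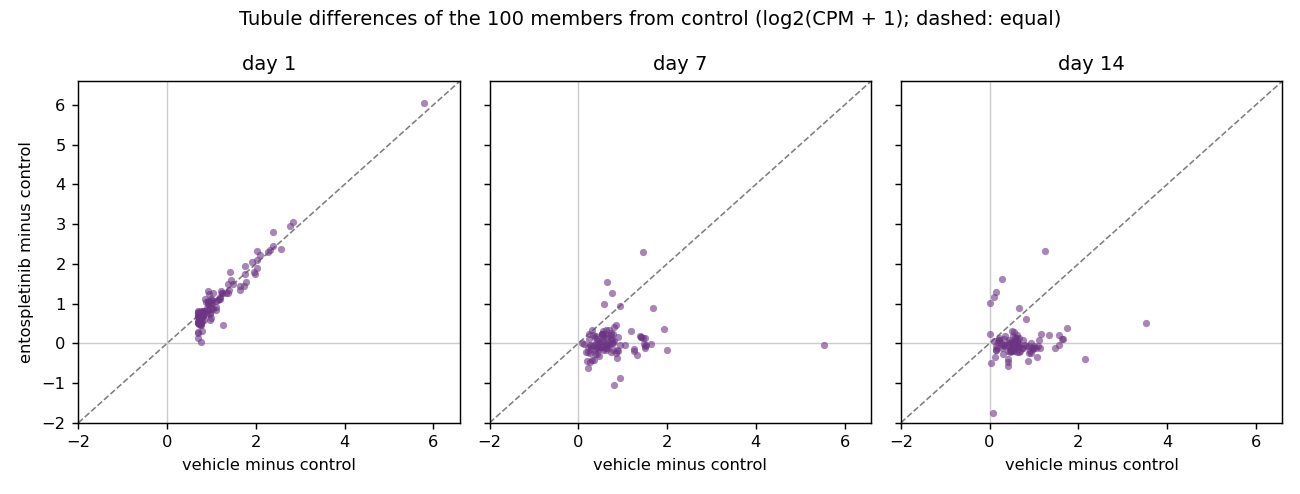
Difference of each member from control in tubules, vehicle on the horizontal and entospletinib on the vertical axis, both on the log2(CPM + 1) scale, on days 1, 7, and 14; the dashed line marks equal differences. On day 1 the points follow the line (medians 0.97 and 0.91), and on days 7 and 14 most lie near 0 on the vertical axis (medians -0.02 and -0.05) while their vehicle values stay above 0.

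Members with a larger vehicle difference on day 1 also had a larger one with entospletinib, with the control sections shared by both. The 12 members with a vehicle day 1 difference above 2 had a median of 2.35 with entospletinib on day 1, -0.03 on day 7, and -0.06 on day 14. The 32 members between 1 and 2 had 1.28, -0.02, and -0.06, and the 56 members below 1 had 0.69, -0.02, and -0.03. Of these 3 sets, 5, 11, and 2 members were called higher on day 1 than on day 7 with entospletinib. Over all identifiers the share was 0.233%.

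A few members went against this course. In 5 members the entospletinib level was higher on day 7 or 14 than on day 1. Their differences from control were 0.15 to 1.49 on day 1, 0.33 to 2.29 on day 7, and 0.31 to 2.32 on day 14. In most of them the later rise lay largely in section 2. The member with the largest later differences had 13.4 and 81.0 CPM in sections 1 and 2 on day 1. It had 14.0 and 239 CPM on day 7, and 14.5 and 241 CPM on day 14. Levels of some members differed mainly by section. In 2 members, section 2 was above section 1 by more than 1 on the log2(CPM + 1) scale in all 6 injured groups, at 55.6 to 318 CPM in section 2 and 10.9 to 63.0 CPM in section 1. Over all identifiers this was found for 12. Such a gap in at least 4 of the 6 groups was found in 6 members, among them RTS0068457, and in 33 of all identifiers. On day 1 the 2 sections differed by more than 1 in 15 members with vehicle and 17 with entospletinib. Over all identifiers the shares were 0.74% and 0.85%. In control the 2 members with the gap in all 6 groups had 8.72 and 26.1 CPM in section 1 and 14.5 and 28.8 CPM in section 2. Their vehicle day 1 difference from control was 0.30 and 1.24 within section 1 and 2.69 and 3.30 within section 2, and neither was called between the entospletinib days. The day 1 sections of the entospletinib group also stood apart as a whole, since section 2 was above section 1 in 91 of 100 members by a median of 0.45, while over all identifiers it was lower by a median of 0.21 (-0.21).

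In vehicle mice the day 1 difference from control was above 0 in all 100 members in cortex, with a median of 0.86, and in 94 in medulla, with a median of 1.47, against medians of 0.12 and 0.21 over all identifiers. These segments chose the members, and most of the vehicle day 1 counts came from cortex. The difference was larger in medulla in 73 members. With entospletinib, against the same controls, the medians were 0.80 in cortex and 1.07 in medulla (0.12 and -0.02 over all identifiers), with values above 0 in 100 and 99 members, and medulla was larger in 78. Within cortex, entospletinib levels were higher on day 1 than on day 7 in 93 members by a median of 0.72, and within medulla in 92 by a median of 1.17. In the fits on 1 region alone, 4 members were called against day 7 and 5 against day 14 in cortex, where 5 and 7 of all 20175 identifiers were called in that direction. In medulla 9 and 8 members were called, of 23 and 16 identifiers. The level itself was compared between regions over the 6 entospletinib sections of all days. edgeR called 2 members higher in medulla than in cortex and 0 higher in cortex, against 0.169% and 0.292% of all identifiers. In edgeR an unadjusted p under 0.05 was reached by 30 members and by 3326 of all 20175 identifiers. DESeq2 called 3 members in all, where 93 identifiers were higher in medulla and 137 higher in cortex. The members' median log2 fold change between medulla and cortex was 0.16 (range -0.41 to 2.50), and over all identifiers it was 0.06. The called members were at 1.06 and 1.44, and 11 members reached an adjusted p under 0.05 without the fold threshold. The 2 became 4 without section 2 of day 7, and 1 without section 2 of day 1, section 1 of day 7, or either section of day 14.

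**Figure D4:**
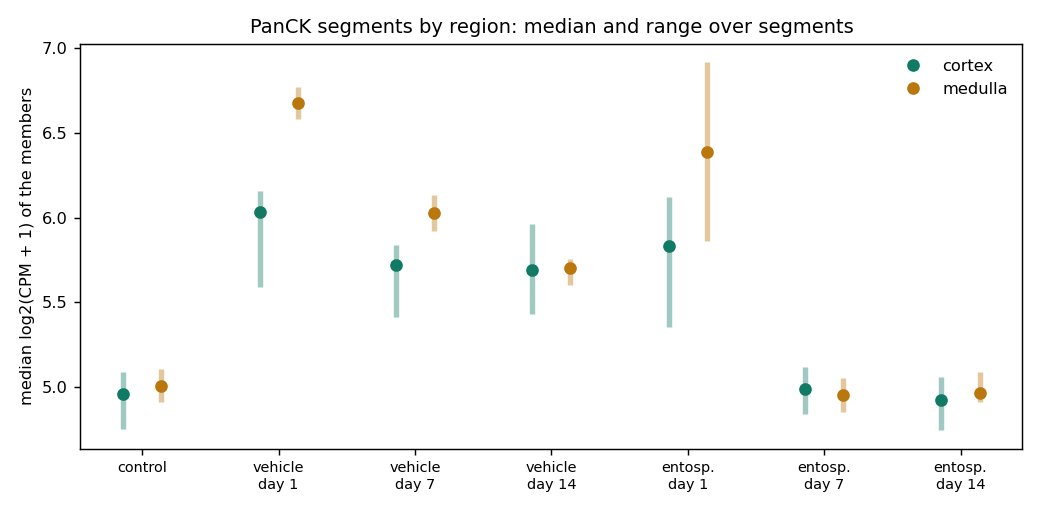
Median level of the 100 members in each tubular segment on the log2(CPM + 1) scale, by group and region; points are medians over segments and bars run from the lowest to the highest segment. In vehicle mice on day 1 the medullary segments (6.58 to 6.77) lie above the cortical ones (5.59 to 6.16), and with entospletinib on days 7 and 14 all segments of both regions lie between 4.74 and 5.12.

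For RTS0068457 the day 7 vehicle level was carried by medulla, where the 2 segments had 1814 and 2788 CPM, while the 4 cortical segments ran from 212 to 544 CPM. In entospletinib mice on day 1 its medullary segments had 1107 and 4490 CPM and its 5 cortical segments ran from 55.9 to 1226 CPM. RTS0071880 differed less by region, with 56.8 and 68.2 CPM in medulla and 54.2 to 68.8 CPM in cortex in the same mice.

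Macrophage segments were measured in separate libraries of the same regions. The macrophage values of vehicle mice on day 1, of controls, and of all entospletinib groups did not enter the selection. Those of vehicle mice on days 7 and 14 did. Vehicle day 1 and control values came from the sections and regions whose tubular segments chose the members. They are thus not independent of the selection. Of the 100 members, 99 passed the filter on low counts there, and 14 were at 0 in at least 1 macrophage section. The median member level in macrophage sums was 5.14 and 5.42 on the log2(CPM + 1) scale in control sections and 6.21 and 6.25 in vehicle sections on day 1. Levels after vehicle were thus higher than in both controls.

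On day 1 with vehicle, 95 of the 99 members had a positive log2 fold change against control macrophage segments, with a median of 1.13 (quartiles 0.73 and 1.63), against a median of -0.05 over the 18541 identifiers tested. edgeR called 21 members higher, with log2 fold changes from 1.18 to 3.21, and 0.48% of all identifiers. The control macrophage sums held only 159453 and 298063 counts. In section 1 many members were at or below 3 counts (18.8 CPM), so their fold changes rest on few control counts. RTS0070030 had the smallest p, at 75.3 and 90.6 CPM in control sections and 456 and 364 CPM on day 1, with a log2 fold change of 2.36 (SE 0.33, n = 2 sections per group, edgeR adjusted p = 7.07e-05). RTS0071880, in contrast, had 31.4 and 57.0 CPM in control and 58.4 and 53.0 CPM on day 1, and did not pass (0.31, SE 0.36, edgeR adjusted p = 0.865). RTS0069800 was at 0 in control section 1, where 3 counts would correspond to 18.8 CPM, and at 10.1 CPM in section 2, against 242 and 44.2 CPM on day 1 (edgeR adjusted p = 0.312). The count of 21 was 12 without either day 1 section, 7 without control section 1, and 4 without control section 2. In cortex alone 9 of the 89 members tested were called higher, among 21 of 13172 identifiers.

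Macrophage sums of entospletinib-treated mice were also highest on day 1. Their median member level was 5.96 and 6.59 on day 1, 4.95 and 5.44 on day 7, and 5.25 and 5.46 on day 14. Against day 7, 96 of 99 members had a positive log2 fold change with a median of 1.11, and 29 were called higher on day 1, against 0.383% of all identifiers. Against day 14, 92 had a positive value with a median of 0.91, and 20 were called, against 0.28% of all identifiers. RTS0071880, not called between vehicle day 1 and control, was called here against both days. Its log2 fold change was 2.62 (SE 0.43, edgeR adjusted p = 0.000769) from day 7 and 1.93 (SE 0.34, edgeR adjusted p = 0.00251) from day 14. The 29 became 4 without section 2 of day 1, 1 without section 1 of day 7, and 15 without section 2 of day 7, and the 20 became 2 without section 2 of day 1, 7 without section 1 of day 14, and 11 without section 2 of day 14. DESeq2 called 16 and 15, of 63 and 32 identifiers called higher on day 1.

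Between entospletinib and vehicle on day 1, edgeR called 0 of 99 members in macrophage segments in either direction, as it called 0% of all identifiers higher with entospletinib and 0% higher with vehicle. The members' median log2 fold change was -0.04 (quartiles -0.33 and 0.14, range -1.36 to 0.96), and DESeq2 called 0 as well. In edgeR 6 members reached an unadjusted p under 0.05, as did 882 of the 18541 identifiers tested. For RTS0070030 the log2 fold change was -0.26 (SE 0.27, n = 2 sections per group, edgeR adjusted p = 0.997), and for RTS0068457, at 450.2 and 1427 CPM with entospletinib and 883 and 1038 CPM with vehicle, it was -0.03 (SE 0.72, edgeR adjusted p = 1.0). These standard errors show how wide a difference could have gone unseen with 2 sections per group. Medullary segments alone gave 3 calls among 88 members tested, 2 higher and 1 lower with entospletinib, where 28 of 9439 identifiers were higher and 6 lower. Leaving out vehicle section 2 gave 2 calls, both higher with entospletinib, where 2 of 19796 identifiers were higher and 1 lower.

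**Figure D5:**
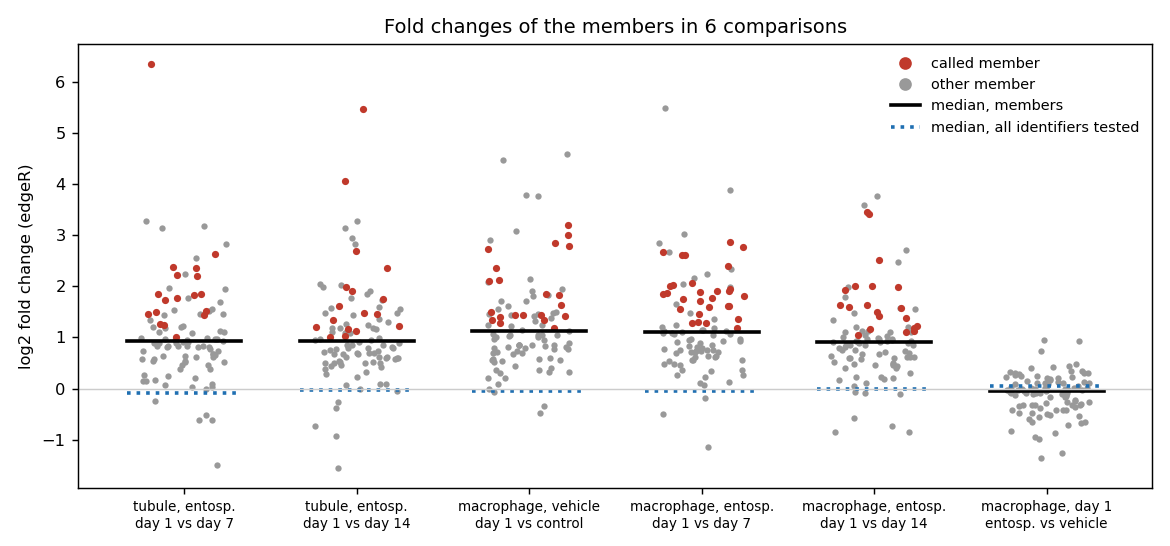
Log2 fold change of each member in 6 comparisons whose values the selection did not use, 2 in tubular and 4 in macrophage sums. Red points are called members, black lines are medians of the members, and dotted blue lines are medians of all identifiers tested. The vehicle and control macrophage sums came from the same sections and regions as the tubular segments that chose the members. The members' medians lie between 0.91 and 1.13 in the first 5 comparisons, and at -0.04 for entospletinib against vehicle in macrophage segments on day 1.

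Macrophage and tubular levels of the members lay close together, as did those of most identifiers. Within the 6 entospletinib sections edgeR called 0 of 100 members in either direction between macrophage and tubular sums, and DESeq2 called 0. In edgeR an unadjusted p under 0.05 was reached by 29 members and by 4511 of all 20175 identifiers. Of all identifiers, 1.63% were called higher in macrophage and 0.322% higher in tubular sums. Against shares this small, 0 of 100 does not set the members apart. The median log2 fold change of the members was 0.01, with a range from -1.15 to 0.70, and over all identifiers it was -0.09. An adjusted p under 0.05 without the fold threshold was reached by 14 members. Leaving out 1 section gave between 0 and 3 calls, all of them higher in tubular sums. There were 2 calls without section 1 of day 1, 3 without section 1 of day 7, 1 without section 2 of day 7, and 2 without section 1 of day 14. Of all identifiers, 112, 128, 54, and 69 were higher in tubular sums in these fits. How much tubular RNA the macrophage segments hold, or the reverse, was not tested, and the condition on the macrophage level had limited the members to those without a large macrophage excess. In the vehicle sections of days 7 and 14, which that condition used, the macrophage minus tubular level ran from -1.53 to 0.97 with a median of -0.15, and was above 0 in 34 members.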

How the data were processed

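Counts were measured by GeoMx DSP in 94 segments (48 PanCK, 46 IBA1) from 14 sections. The authors deposited raw counts of UMIs per identifier, without normalization, from the GeoMx NGS Pipeline, version 3.1.1.5 per the file headers. The authors' later filtering and upper quartile normalization were not part of these counts. The 2 samples excluded by the authors are not identified in the sources used here, and no segment was left out.

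Counts were summed per section and stain, so that 1 sum is 1 replicate and the 2 regions with a second tubular segment add to 1 sum. Identifiers passed edgeR's filterByExpr (minimum count 10, total 15; 20175 in tubular and 18541 in macrophage sums). Upper quartile scaling was used, followed by the quasi-likelihood test of edgeR 4.0.16 (robust, R 4.3.3), with a shared spread over the 14 sums of a stain and Benjamini-Hochberg adjustment over all identifiers tested. Calls needed a log2 fold change beyond 1 in either direction together with an adjusted p under 0.05. DESeq2 1.42.0 and other settings were alternatives. Standard errors are the absolute log2 fold change over the square root of F. Members and lists were chosen with earlier results of these data known. Named identifiers were the 2 with the largest day 1 difference and the 2 others with the smallest adjusted p for a lower level on day 14 than day 1 with entospletinib. The code was tested on simulated data.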

Additional observations from a re-analysis of the deposited data

Results flagged for a closer look

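The 4 named identifiers and the median of the members were examined for single segments far from the others among the 6 to 9 tubular segments of each group, on the log2(CPM + 1) scale, in 35 sets of values. Chance flags about 1 in 20 such sets, and 5 were found. RTS0069800 had 9.70 in the medullary segment of vehicle section 1 on day 1, where the next highest segment of that group had 5.60. RTS0068457 had 5.90 in the medullary segment of control section 1, against 3.89 in the next. RTS0071880 had 5.00 in a cortical segment of vehicle section 1 on day 14, against 5.52 in the next lowest. The other 2 lie in the shallow segments of regions that were collected in a pair of tubular segments. RTS0070030 had 4.09, or 2 counts of 125254, in a cortical segment of entospletinib section 1 on day 1, against 7.71 in the next lowest. RTS0068457 had 0.00, or 0 counts of 77621, in a cortical segment of entospletinib section 1 on day 14, against 3.84 in the next lowest, and a count of 0 there allows up to 38.7 CPM (3 counts). Leaving out the first segment of each such region left the counts of called members at 18 and 17.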

How the results depend on the processing

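With 2 sections per group, calls rest on few values, and where 1 section was left out, the remaining one was given the spread of the rest. Leaving out 1 section at a time, the number of members called ranged from 0 to 42 for entospletinib tubules on day 1 against day 7, from 1 to 40 against day 14, from 4 to 12 for vehicle day 1 against control in macrophage segments, from 0 to 2 for entospletinib against vehicle there, from 1 to 34 and from 2 to 24 for entospletinib macrophage segments on day 1 against days 7 and 14, from 1 to 4 between regions, and from 0 to 3 between stains. In tubules, the 18 and 17 calls against days 7 and 14 became 9 and 7 with TMM and 41 and 39 with DESeq2 on sums. They became 4 and 5 in cortex and 9 and 8 in medulla. For all identifiers, 47 and 50 became 24 and 23, 128 and 108, 5 and 7, and 23 and 16, in that order. DESeq2 on segments called 39 and 41 members, of 132 and 127 identifiers. It takes segments of the same sections as replicates, so its p-values do not measure the spread between sections. In macrophage segments, cortex alone gave 9 calls for vehicle day 1 against control, 13 for day 1 against day 7, and 4 against day 14. Medulla alone gave 3 for entospletinib against vehicle, 13 against day 7, and 6 against day 14. DESeq2 on sums gave 16 against day 7. Over all identifiers, 21, 21, and 10 were called higher in cortex, and 63 with DESeq2. In medulla 28 were higher and 6 lower with entospletinib, and 59 and 16 were higher on day 1. The members themselves depended on the regions: of the 100, 60 were chosen again from cortex, 29 from medulla, 58 with regions weighted equally, and from 57 to 92 with 1 section left out. Of the alternatives to all these counts, 62 stayed within 1.5 times the original, while 32 were lower, 14 were higher, and 4 changed the members chosen by more than that. The cause of these shifts was not tested. Sections of the compared groups share only a label prefix, with 2 pairs each. Deviations of the 2 sections correlated at 0.50 and 0.53 across identifiers between entospletinib tubules of day 1 and days 7 and 14, and between -0.04 and 0.12 in macrophage segments. With the prefix as a replicate block, 25 and 29 members were called in tubules against days 7 and 14, of 61 and 79 identifiers called higher. In macrophage segments 27 were called for vehicle day 1 against control, of 161, and 0 for entospletinib against vehicle, of 0. Against days 7 and 14 there, 30 and 24 were called, of 81 and 66. Depth limits the macrophage sums most, the smallest of which holds 117693 counts.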
